A study of Mus musculus with 10 samples.

Results

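The immunity-related GTPases described here are Igtp, Irgm1, Irgm2, Iigp1, Tgtp1 and Tgtp2. These 6 genes were picked by symbol from the 24202 gene symbols of the table, with earlier results of these data known. All 6 passed the filter that left 16767 genes for testing (a mean of at least 10 normalized counts). The samples were 10 whole tumors of MB-49, a mouse bladder cancer cell line, grown under the skin of mice that carried a human LRRC32 knock-in (hLrrc32). LRRC32 encodes GARP, the surface protein that docks latent TGF-beta, and PIIO-1 is an antibody against GARP. In the treated group, 5 tumors came from hLrrc32 knock-in mice given PIIO-1 intraperitoneally, 200 ug per mouse on day 6 and again on day 9. The control group held 5 tumors from knock-in mice given PBS. Knock-in genotype, tumor line (100000 cells injected) and collection on day 10 were common to both groups, and no group of mice without the knock-in is described in the labels. The labels do not give the age or sex of the mice, nor whether each tumor came from its own animal. The p-values therefore measure the spread between these samples.

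Immunity-related GTPases, or IRG proteins, are among the most strongly induced products of interferon-gamma in mouse cells, where the transcription factor IRF1 takes part in their induction. The effector members Iigp1 (Irga6), Tgtp1 and Tgtp2 (Irgb6) load onto the vacuoles of Toxoplasma and Chlamydia and help to break them. The regulator members Irgm1, Irgm2 and Igtp (Irgm3) sit on the cell's own membranes and keep the effectors in their inactive state there. In a tumor these transcripts can come both from the cancer cells and from the infiltrating leukocytes, and in bulk RNA fewer cells of a type and less RNA per cell cannot be told apart.

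Promoter sequences show what the members share in their DNA, and 5 of the 6 matched an entry of the RefSeq promoter windows (build GRCm38.p6, 250 bases before to 50 after the annotated start), the exception being Iigp1. Each line gives the 120 bases before the start, 5′ to 3′ on the gene's strand, and capitals mark matches to the GAS letters TTCNNNGAA, the interferon-gamma-activated sequence, which reads the same on both strands, and to the core of the interferon-stimulated response element (ISRE), which is GAAA, any 2 bases and GAAA again, searched on both strands.
Igtp: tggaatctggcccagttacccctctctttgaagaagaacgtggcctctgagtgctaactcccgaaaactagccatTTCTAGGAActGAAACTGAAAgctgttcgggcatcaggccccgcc
Irgm2: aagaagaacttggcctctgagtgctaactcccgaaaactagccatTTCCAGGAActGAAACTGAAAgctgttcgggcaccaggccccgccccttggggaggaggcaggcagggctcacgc
Tgtp1: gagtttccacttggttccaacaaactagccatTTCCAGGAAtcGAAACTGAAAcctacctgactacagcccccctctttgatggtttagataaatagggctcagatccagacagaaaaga
Tgtp2: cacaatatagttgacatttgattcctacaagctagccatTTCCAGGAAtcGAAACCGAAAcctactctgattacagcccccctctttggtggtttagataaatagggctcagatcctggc
Irgm1: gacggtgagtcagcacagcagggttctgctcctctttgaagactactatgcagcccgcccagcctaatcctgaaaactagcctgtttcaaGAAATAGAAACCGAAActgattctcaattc

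The printed stretches lie at chr11:58199436-58199555 (plus strand) for Igtp, chr11:58214857-58214976 (plus) for Irgm2, chr11:48992247-48992366 (minus) for Tgtp1, chr11:49064213-49064332 (minus) for Tgtp2 and chr11:48871421-48871540 (minus) for Irgm1. Igtp, Irgm2, Tgtp1 and Tgtp2 each held 1 GAS match followed, after 2 bases, by 1 ISRE-core match. The GAS match of Igtp covered bases -45 to -37 from the start and its ISRE-core match bases -34 to -25. The pair began at base -75 in Irgm2, -88 in Tgtp1 and -81 in Tgtp2. Irgm1 held no GAS match in its window and 2 ISRE-core matches, at -30 to -21 and -24 to -15, which overlap. Among all 32851 promoter windows of this length, 8.30% held a GAS match, 3.44% an ISRE-core match and 0.454% both. The joint arrangement of a GAS match, any 2 bases and an ISRE-core match was put together after the members' promoters had been read. It occurred in 5 windows (0.0152%), those of the 4 members above and of Gm12185, a further IRG gene that neighbours Tgtp1. A match describes the letters only. The annotated RefSeq start differed from the GENCODE gene start by 0 bases for Igtp, -6 for Tgtp2, 263 for Irgm1, 1926 for Tgtp1 and 15359 for Irgm2.

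**Figure D1:**
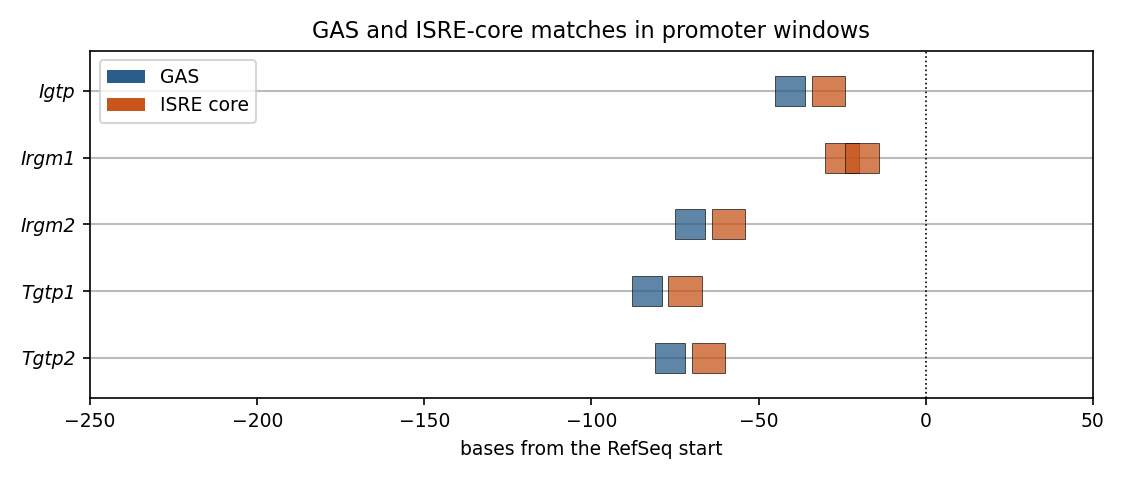
Positions of GAS (blue) and ISRE-core (orange) matches in the promoter windows of 5 IRG genes, in bases from the RefSeq start (dotted line), from 250 before to 50 after. The GAS and ISRE-core matches stand side by side in Igtp, Irgm2, Tgtp1 and Tgtp2, and Irgm1 has 2 overlapping ISRE-core matches only.

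The genes lie in clusters, which bears on how far their counts can be told apart. Igtp (chr11:58199556-58207591, plus strand) and Irgm2 (chr11:58199618-58222782, plus strand) share 162 exonic bases in the GENCODE annotation of GRCm38, which is 8.01% of the exonic bases of Igtp and 4.39% of those of Irgm2. Irgm1 (chr11:48861968-48871683, minus strand) overlaps no annotated gene. Tgtp1 (chr11:48985327-48994172, minus strand) and Tgtp2 (chr11:49057194-49064206, minus strand) are near-identical copies, and 70.3% of the 100-base stretches of Tgtp1 and 76.8% of those of Tgtp2 occur in the other gene. Their separate counts are uncertain for that reason. Tgtp1 also shares 223 exonic bases with Gm12185. Iigp1 (chr18:60376027-60392634, plus strand) lies apart from the others and shares no such stretch.

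Reads in genes numbered 18843192 to 37581521 per tumor. The tumors showed high Krt8 (50275 to 65634 normalized counts), a keratin of simple epithelia, while Epcam stood between 10.9 and 29.6 and Krt5, a basal keratin, between 1.96 and 139. Summed pan-leukocyte markers (Ptprc, Coro1a, Laptm5, Cd53 and Lcp1) ran from 43226 to 65256 in PBS and from 38361 (tumor 1) to 77917 (tumor 4) in PIIO-1 tumors. PIIO-1 tumor 1 also had the lowest summed T cell, NK cell and macrophage markers of the 10 tumors. PIIO-1 tumor 5 had the highest share of mitochondrial (3.12%) and globin (0.180%) reads.

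All 6 members were expressed in all 10 tumors, and their order by level per length barely varied. Igtp stood highest, at 5970.5 ± 693 normalized counts per kb of exon (SD, n = 5) in PBS tumors. Irgm2 and Irgm1 followed at 1770 ± 90.6 and 1695 ± 202 per kb, and this pair did not differ beyond its spread. Iigp1 stood at 902 ± 68.6, Tgtp2 at 540 ± 73.2 and Tgtp1 at 321 ± 67.2 per kb, the last 2 with the uncertainty of their shared sequence. The same order was found in each tumor, except that Irgm1 stood above Irgm2 in PBS tumor 1 and in PIIO-1 tumors 4 and 5. Regulators thus had higher levels per kb than effectors in each of the 10 tumors.

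In PIIO-1 tumors the mean level of each of the 6 members was below that of PBS tumors, with fitted changes between -22.5% (Igtp) and -7.56% (Tgtp2), but no member passed the test over all genes. The 3 members with at least 4 of 5 PIIO-1 tumors below the lowest PBS tumor were Igtp, Irgm1 and Iigp1. PIIO-1 tumor 4 went the other way and had the highest level of all 10 tumors for 5 of the 6 genes. The comparison asks how the GARP antibody shifts these interferon-induced transcripts, and differences are given as PIIO-1 minus PBS on the log2(normalized count + 1) scale with the standard error (SE) from limma.

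Among the regulators, Igtp, whose protein resides on the endoplasmic reticulum and lipid droplets, had 13933, 12595, 12236, 11446 and 10152 normalized counts in PBS tumors 1 to 5. Its values in PIIO-1 tumors 1 to 5 were 7634, 8754, 9599, 13148 and 8286. Of the PIIO-1 tumors, 4 lay below every PBS tumor and tumor 4 lay above 4 of the 5. The means were 12072 ± 1400.4 in PBS and 9484 ± 2170 in PIIO-1 tumors. The difference was -0.37 (SE 0.13, 95% interval -0.66 to -0.075), with an unadjusted limma p of 0.018 and an adjusted p of 0.837.

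Irgm1, needed in mice for resistance to Mycobacterium and for the control of lipid droplets and autophagy, had 11805, 9506, 9940, 9227 and 8756 normalized counts in PBS tumors 1 to 5. In PIIO-1 tumors 1 to 5 it had 6408, 7790.0, 8567, 12662 and 8189. Again 4 PIIO-1 tumors lay below every PBS tumor, and tumor 4 was the highest of all 10. The difference was -0.20 (SE 0.15, 95% interval -0.53 to 0.13; limma adjusted p 0.861).

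Irgm2, a Golgi-associated regulator, had the smallest relative spread among PBS tumors (SD of the log2 values 0.076, the lowest of the 6 members), with 6603, 6740.3, 6787, 6569 and 5956 normalized counts in tumors 1 to 5. Its PIIO-1 values were 5218, 5428, 5959, 7062 and 4293. PIIO-1 tumor 3 lay just above PBS tumor 5, so 3 PIIO-1 tumors were below every PBS tumor, and the lowest value was in PIIO-1 tumor 5. The difference was -0.24 (SE 0.11, 95% interval -0.48 to -0.0075; unadjusted p 0.044, limma adjusted p 0.837). Without PIIO-1 tumor 5 it was -0.15, with an unadjusted limma p of 0.0995.

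Among the effectors, Iigp1 had 5427, 5308, 5203, 5705 and 4622 normalized counts in PBS tumors 1 to 5. Its PIIO-1 values were 2995, 4302, 4024, 6626 and 3511. The groups overlapped only through PIIO-1 tumor 4, which was the highest of the 10 tumors. The difference was -0.34 (SE 0.17, 95% interval -0.71 to 0.026; limma adjusted p 0.837).

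Tgtp1 had 1313, 843, 968, 1189 and 828 normalized counts in PBS tumors and 533, 718, 841, 1616 and 854 in PIIO-1 tumors. Its copy Tgtp2 had 1890.4, 1334, 1432, 1651 and 1619 in PBS and 871, 1577, 1241, 2589 and 1476 in PIIO-1 tumors. For both, 2 PIIO-1 tumors lay below every PBS tumor, tumor 4 was the highest and tumor 1 the lowest. Tgtp1 differed by -0.25 (SE 0.25; limma adjusted p 0.891) and Tgtp2 by -0.11 (SE 0.23; limma adjusted p 0.956). The 95% interval of Tgtp1 ran from -0.79 to 0.29 and that of Tgtp2 from -0.61 to 0.38.

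**Figure D2:**
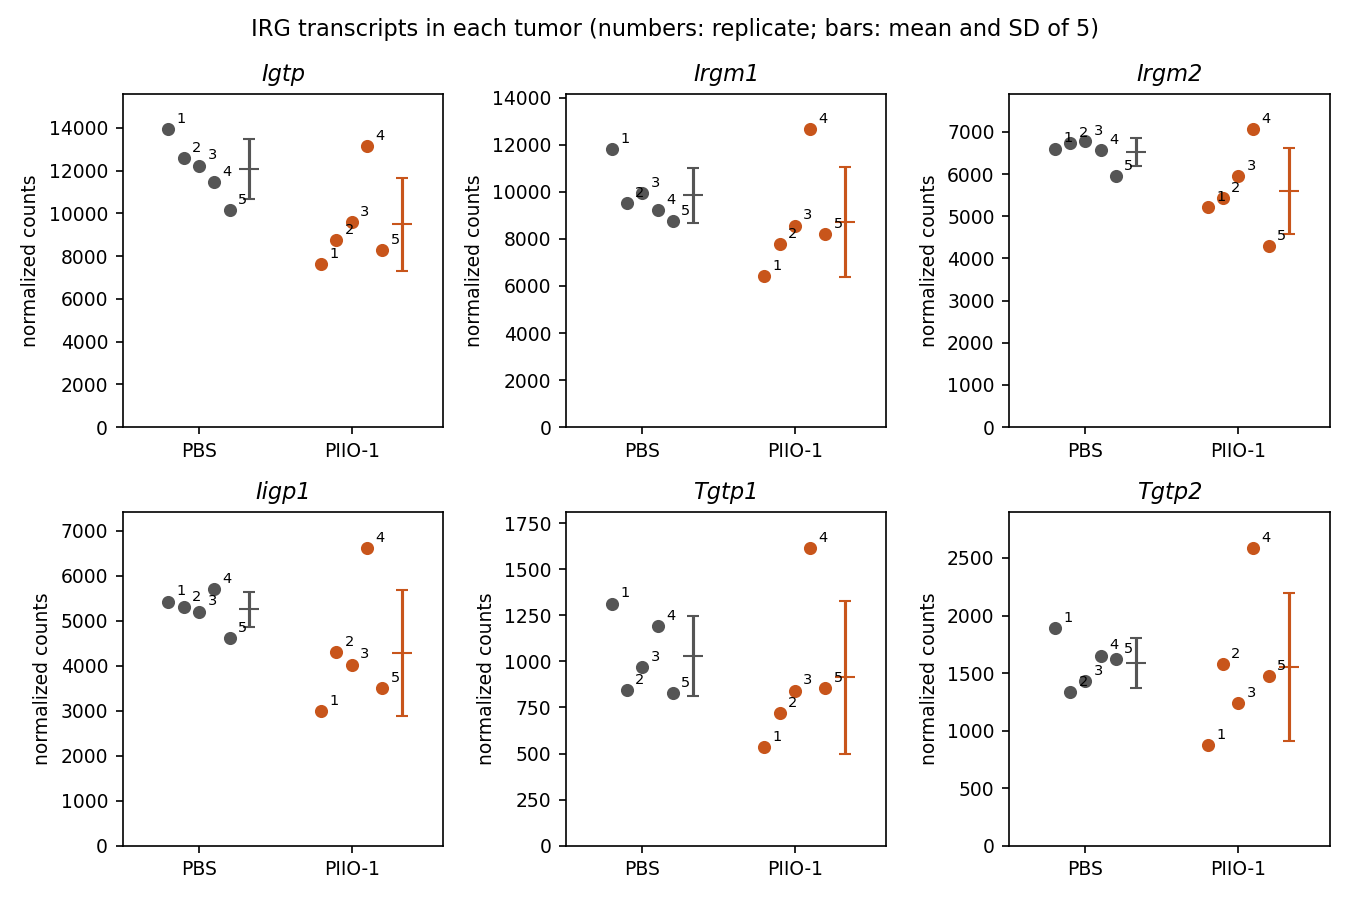
Normalized counts of the 6 IRG genes in each of 5 PBS (grey) and 5 PIIO-1 (orange) tumors, with the replicate number beside each point and the mean and SD beside each group. PIIO-1 tumor 4 is the highest of 10 for 5 genes and second for Igtp, and PIIO-1 tumor 1 is the lowest for the 5 genes other than Irgm2.

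Over the table limma called 0 of 16767 genes (0%), so 0 of 6 members called equals the background. Before adjustment, 944 genes had a limma p under 0.05, of which 464 (2.77%) were lower in PIIO-1 tumors, and 2 of the 6 members (Igtp and Irgm2) were among these. The members' median difference was -0.25, where the median of all tested genes was 0.0027, and 6 of 6 were negative where 48.9% of all genes were. Members vary together across tumors, so the 6 signs are not 6 independent observations. At least 4 PIIO-1 tumors below every PBS tumor were found for 3 of 6 members and for 526 genes (3.14%) of the table. All 5 below every PBS tumor were found for 0 of 6 members and for 0.459% of genes.

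The spread between tumors was wider in the PIIO-1 group for 6 of 6 members. The SD of the log2 values was 1.79 to 3.82 times that of the PBS group, and 58.4% of all genes were wider in PIIO-1 tumors. Without PIIO-1 tumor 4 the PIIO-1 group was wider for 5 of 6, and for Igtp the SD was 0.14 against 0.17 in PBS. PIIO-1 tumor 4 was the highest of the 10 tumors for 5 of 6 members and for 11.1% of all genes. PIIO-1 tumor 1 was the lowest for 5 of 6 members and for 13.2% of all genes. From the lowest to the highest tumor the level differed 1.65-fold for Irgm2 and 3.03-fold for Tgtp1, the ends of the range over the members.

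With PIIO-1 tumor 4 left out, the members' median difference was -0.41, and without PIIO-1 tumor 1 it was -0.16. Without tumor 4 the limma differences were -0.49 for Igtp, -0.35 for Irgm1, -0.33 for Irgm2, -0.51 for Iigp1, -0.48 for Tgtp1 and -0.32 for Tgtp2. limma then called 0 members, with a smallest adjusted p of 0.434 among them. The edgeR and DESeq2 fits without this tumor were added after its values were seen, and edgeR called 0 members. DESeq2 called Igtp (adjusted p 0.00113) and Iigp1 (adjusted p 0.00319) among 34 genes, 0.203% of the 16767 entered. That share counts genes to which DESeq2 gave no adjusted p, among them Tgtp1 (unadjusted DESeq2 p 0.0067). It is also no neutral background. The tumor left out was the highest of 10 for 5 of 6 members but for 11.1% of all genes, so its removal lowers the members' PIIO-1 values by selection. At an unadjusted limma p under 0.05 stood 5 of the 6 members without PIIO-1 tumor 4, beside 906 of all 16767 genes. With any other single tumor left out it was 1 or 2 of the 6, beside 625 to 1657 genes. When both PIIO-1 tumor 5 and PBS tumor 4 were left out it was 0 of the 6, beside 612 genes. Over all 10 tumors DESeq2 called 3 genes (1016 at an unadjusted p under 0.05) and edgeR 0 (975), with 0 members in either. Without PIIO-1 tumor 1 the difference of Tgtp2 changed sign, to 0.071, that of Tgtp1 was -0.080, that of Irgm1 -0.10 and that of Iigp1 -0.23.

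The leukocyte markers moved with the members in these 2 tumors, with the pan-leukocyte sum at its lowest in PIIO-1 tumor 1 and at its highest in tumor 4. They did not in PIIO-1 tumor 5, where Ptprc (the CD45 gene, carried by all leukocytes) reached its highest level, 17430 normalized counts, and Irgm2 its lowest. Of the 5 pan-leukocyte genes 5 had a positive difference (median 0.11, 0 called), and none was listed at 0 in any tumor. With the log2 level of Ptprc as a covariate, limma gave differences of -0.40 for Igtp, -0.39 for Iigp1, -0.34 for Tgtp1, -0.25 for Irgm1, -0.24 for Irgm2 and -0.21 for Tgtp2, and called 0 members. Globin and other red blood cell markers (6 of 6 positive, median 1.41, summed level 5563 to 12904 in PBS and 8458 to 58768 in PIIO-1 tumors) and immediate early and stress genes (10 of 10 positive, median 0.50, summed level 106239 to 144396 in PBS and 122525 to 224579 in PIIO-1 tumors) also had higher medians in PIIO-1 tumors. So did neutrophil markers (6 of 6 positive, median 0.46, summed level 13030 to 27082 in PBS and 15666 to 37517 in PIIO-1 tumors), platelet markers (5 of 5 tested positive, median 0.42, summed level 1754 to 3315 and 2760.4 to 5181) and B cell markers (4 of 5 positive, median 0.79, summed level 651 to 806 and 695 to 917). limma called 0 genes in each of these 5 lists. NK cell markers (5 of 5 negative, median -0.13) and T cell markers (7 of 8 negative, median -0.066) had lower medians in PIIO-1 tumors. Macrophage markers were split (4 of 8 negative, median -0.0079), and dendritic cell markers were mostly higher (4 of 6 positive, median 0.22). None of these 4 lists held a called gene either. The part of any of these lists in the members' differences was not tested.

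**Figure D3:**
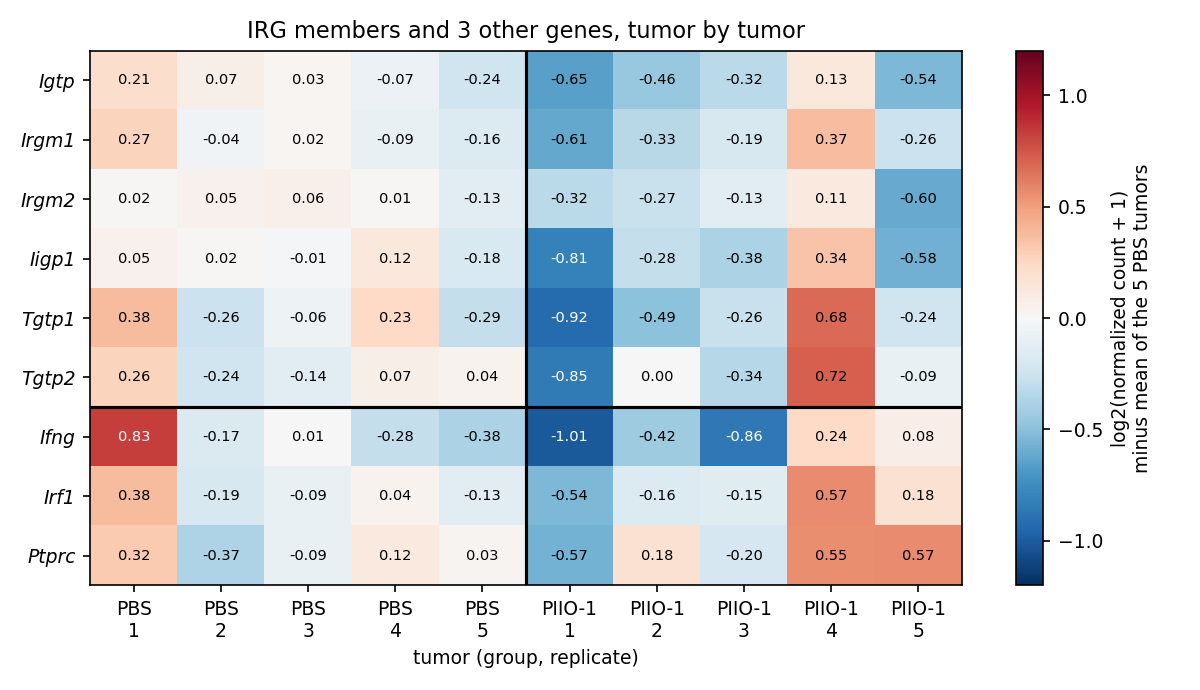
Each cell gives 1 gene in 1 tumor as log2(normalized count + 1) minus the mean of the 5 PBS tumors, for the 6 IRG members (above the line) and for Ifng, Irf1 and Ptprc. Among PIIO-1 tumors all 6 members are negative in tumors 1, 3 and 5 and positive in tumor 4, and in tumor 5 Ptprc is at 0.57 while Igtp is at -0.54.

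Ratios of 2 members within a tumor do not depend on the scaling, and for 15 pairs the group difference was put to an exact permutation test (two-sided, all regroupings of the 10 tumors). None passed after Benjamini-Hochberg adjustment. The pair with the smallest p was Igtp over Irgm1, with a mean log2 ratio of 0.29 ± 0.075 in PBS and 0.13 ± 0.095 under PIIO-1, which differ by -0.16 (exact p 0.0238, adjusted p 0.357). The smallest p these regroupings allow is 0.00794, which adjusts to 0.119 where 1 pair alone reaches it, so a lone pair could not pass. Regulators and effectors were not tested against each other as groups. For Irgm1 over Iigp1 the ratio differed by 0.14 (exact p 0.214) and for Igtp over Iigp1 by -0.025 (exact p 0.778).

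Members varied together across the 10 tumors, with Pearson's r from 0.453 for Irgm2 with Tgtp2 to 0.942 for Irgm1 with Tgtp1. Spearman's rho for these pairs was 0.382 and 0.867 (permutation p for r 0.191 and 0.00014, adjusted p 0.191 and 0.00080). Of the 15 pairs 13 passed by a permutation test of r with 100000 resamples (Benjamini-Hochberg over the pairs), and 12 by Spearman's rho. Without the 2 tumors farthest from the median, r ranged from 0.091 to 0.926 over the pairs. With values centred on their group mean it ranged from 0.455 to 0.955. For Igtp and Irgm2, which share exonic bases, r was 0.875 (rho 0.891, adjusted permutation p 0.00157). For the copies Tgtp1 and Tgtp2 it was 0.891 (rho 0.697, adjusted permutation p 0.00294; r 0.597 without the 2 farthest tumors).

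Against Ifng, Irf1 and Ptprc, 18 relations were computed across the 10 tumors, and 8 passed for Pearson's r and 5 for Spearman's rho (permutation tests with Benjamini-Hochberg adjustment). With values centred on their group means 12 passed, and without PIIO-1 tumor 4 the number was 7. The test of centred values permuted them over all 10 tumors without allowing for the group means taken out, so its p-values are too small. Igtp with Ifng and Irgm1 with Ptprc passed it only at an adjusted permutation p of 0.0491. Without the 2 tumors farthest from the median of the second gene, 1 of the 18 relations passed.

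Irf1, which encodes an interferon-induced transcription factor, had an r of 0.917 with Tgtp1 and 0.301 with Irgm2 (rho 0.879 and 0.382; permutation p 0.00037 and 0.394; adjusted p 0.00296 and 0.429). Without PBS tumor 1 and PIIO-1 tumor 4 these values were 0.784 and -0.13. Ifng, the inducer, had an r of 0.321 (Irgm2) to 0.810 (Irgm1) with the members and a rho of 0.527 to 0.867, and 4 of 6 passed for r (adjusted permutation p 0.0137 to 0.415). The range of r was 0.070 to 0.599 without PBS tumor 1 and PIIO-1 tumor 1, the 2 tumors farthest from the median of Ifng. These relations were thus weaker without those tumors. Leaving out the extremes also narrows the range of Ifng, which by itself tends to lower r. Whether the relations rest on those tumors was therefore not decided. Ptprc had an r of 0.820 with Tgtp2 (rho 0.770, permutation p 0.00249, adjusted p 0.00996; 0.933 without the 2 farthest tumors), 0.240 with Igtp (rho 0.212, permutation p 0.498, adjusted p 0.520) and -0.0999 with Irgm2 (rho -0.0061, permutation p 0.789, adjusted p 0.789). Differences between these r values were not tested.

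**Figure D4:**
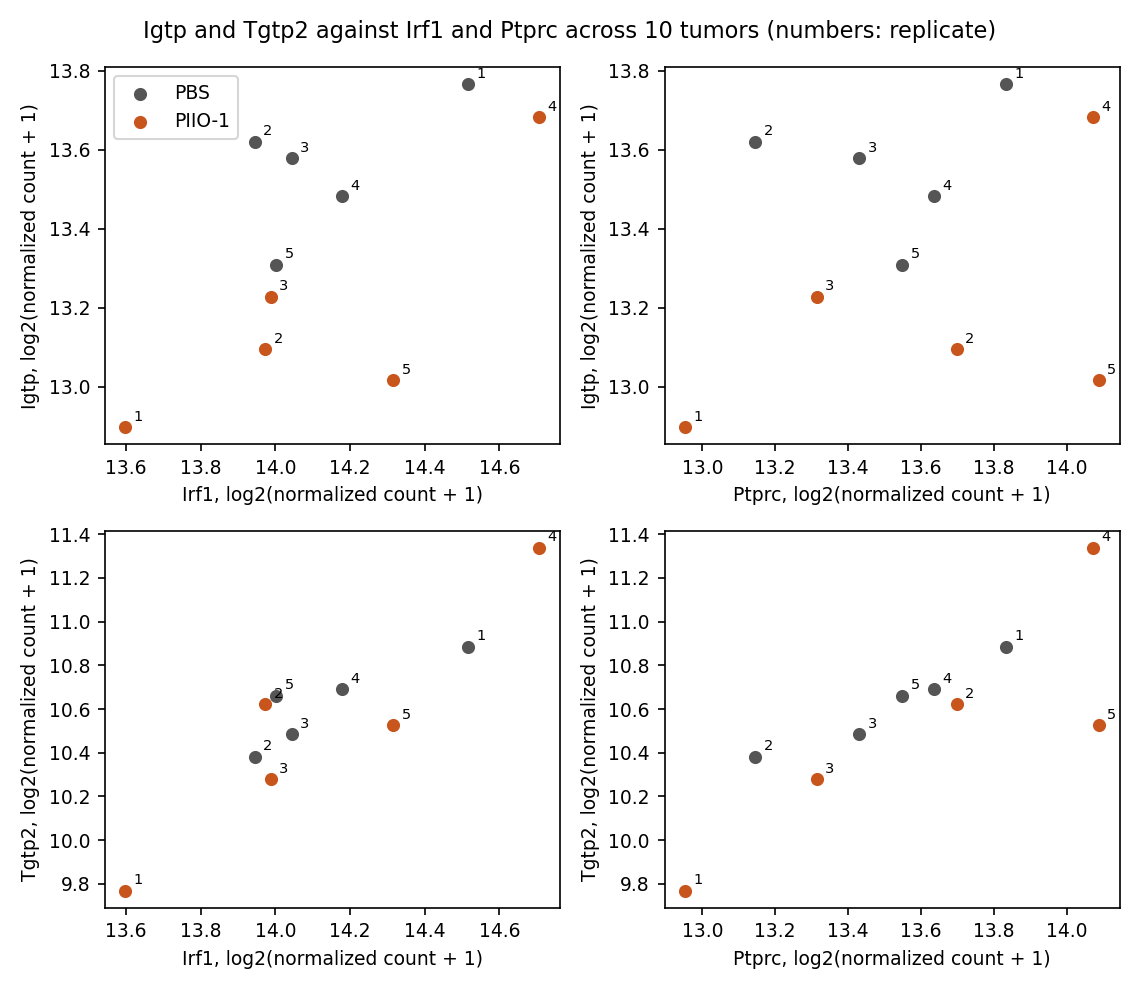
Igtp (top) and Tgtp2 (bottom) against Irf1 (left) and Ptprc (right), each as log2(normalized count + 1), 1 point per tumor, grey for PBS and orange for PIIO-1, with replicate numbers. Igtp has an r of 0.616 with Irf1 and 0.240 with Ptprc, and Tgtp2 has an r of 0.908 with Irf1 and 0.820 with Ptprc.

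Genes whose pattern over the 10 tumors was most like the mean log2 value of the members were led by Nlrc5, the transactivator of MHC class I genes, with a Pearson's r of 0.970. Next came the guanylate-binding protein genes Gbp4 (0.954) and Gbp9 (0.953), the IRG gene Gm12250 (0.949), Gbp2 (0.948), Uba7 (0.948), which encodes the E1 enzyme of ISG15, the nuclear body gene Sp110 (0.948) and the ubiquitin ligase gene Arel1 (0.948). An r of at least 0.9 was found for 27 of all tested genes, where the median r was -0.0048. Ifi47, another IRG gene (Irgd), chosen for mention after the data were seen, came 12th with 0.937. These r values are a description over 10 tumors that share their libraries and treatment groups.

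Over all 10 tumors limma called 0 genes in each of the pathway lists outside the 6 members. Of 11 further IRG genes tested 8 were negative (median -0.16), led by Gm4951 (-0.50, SE 0.14), Gm12250, known as Irgb10 (-0.36, SE 0.15), and Gm12185 (-0.33, SE 0.19; -0.22 without PIIO-1 tumor 5). Gm4951 had 1184, 1136, 1185, 1097 and 1093 normalized counts in PBS tumors and 619, 910.1, 789, 1154 and 655 in PIIO-1 tumors, so 4 PIIO-1 tumors lay below every PBS tumor. The 11 guanylate-binding protein genes, whose products act with IRG proteins on pathogen vacuoles, were all negative (median -0.32). An unadjusted limma p under 0.05 was found for 5 of them, where 2.77% of all genes were lower at that p. They followed the members' mean closely (median r 0.937), so the 11 signs are not independent observations. Gbp10 differed by -0.85 (SE 0.28), Gbp3 by -0.44 (SE 0.15) and Gbp6 by -0.52 (SE 0.19). Copies of similar sequence may make single Gbp counts uncertain, but the stretches these genes share were not measured.

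In the interferon-gamma signalling chain 6 of 11 genes were negative, with a median of -0.021. Ifng had 710, 354, 401, 328 and 307 normalized counts in PBS tumors and 198, 298, 219, 470 and 422 under PIIO-1, and differed by -0.40 (SE 0.28; -0.19 without PBS tumor 1). Nlrc5 differed by -0.14 (SE 0.10), a value that became -0.23 on leaving out PIIO-1 tumor 4 and -0.060 on leaving out tumor 1 of that group, and Irf1 by -0.021 (SE 0.18). The sign for Irf1 turned, to 0.074, without PBS tumor 1, and it was positive too without PIIO-1 tumor 1, 2 or 3 and by edgeR and DESeq2. Of 20 type I interferon-stimulated genes 19 were negative with a median of -0.076, among them Xaf1 (-0.22, SE 0.11), Ifi44 (-0.31, SE 0.21) and Ifit3 (-0.23, SE 0.18). Without PIIO-1 tumor 5 the difference was -0.11 for Ifi44 and -0.12 for Ifit3, and with PIIO-1 tumor 4 left out it was -0.38 for Ifit3 and -0.32 for Xaf1. The LC3 and GABARAP conjugation genes, whose products direct IRG and guanylate-binding proteins to their target membranes, had 9 of 12 positive and a median of 0.041. Atg7 differed by 0.13 (SE 0.053), Gabarapl2 by 0.13 (SE 0.056) and Map1lc3b by 0.17 (SE 0.082; 0.10 without PIIO-1 tumor 5).

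**Figure D5:**
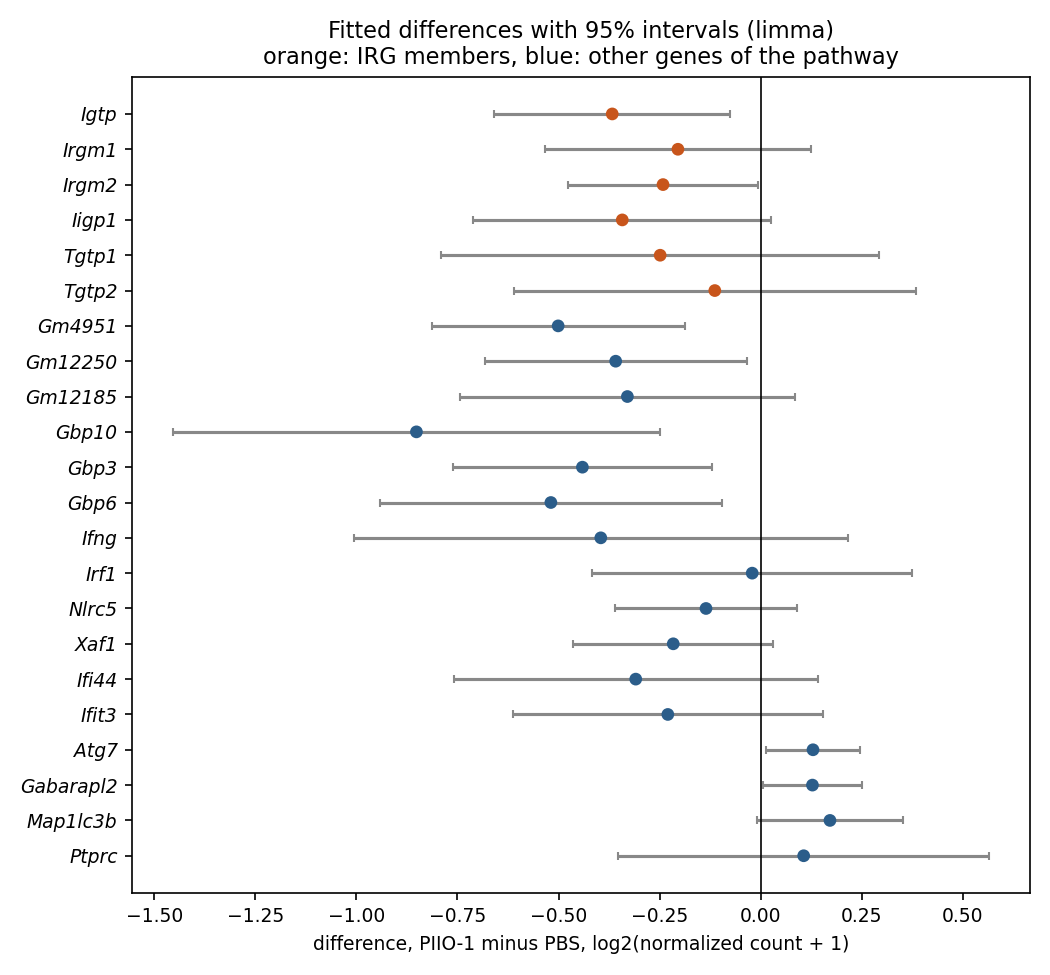
Differences between PIIO-1 and PBS tumors on the log2(normalized count + 1) scale as fitted by limma, with 95% intervals, for the 6 IRG members (orange) and 16 other genes (blue). The members, all shown, lie between -0.37 and -0.11. The 3 genes each of the other IRG and guanylate-binding lists lie between -0.85 and -0.33, and the 3 LC3 conjugation genes between 0.13 and 0.17. These 3 genes were picked for the smallest limma p of their list and do not stand for it. The medians of all tested genes of these lists were -0.16 (other IRG, 3 of 11 positive), -0.32 (guanylate-binding) and 0.041 (LC3, 3 of 12 negative).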

How the data were processed

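Bulk RNA sequencing of 10 tumors was used. The authors deposited a table of signal values at or above 0, counts scaled between libraries, for 24202 gene symbols; per the submitters' processing notes HISAT2, featureCounts, DESeq2 and build GRCm38 were used. Versions, gene annotation and strandedness of counting: not given in the sources used here. Whole reads were recovered from the smallest step of each column, with 100% of values whole within 0.001 read. Totals ran from 18843192 to 37581521 reads, so 3 reads are worth 2.45 to 4.68 normalized counts. Each pair of libraries differed by more than counting noise (chi-square per gene of at least 9.80). GENCODE coordinates matched 23984 symbols to 1 gene.

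The treatment label gave the groups, and sample titles the replicate numbers. The main test was limma 3.58.1 (R 4.3.3) with an intensity trend on log2(normalized count + 1), two-sided, on 16767 genes (mean of 10 or more), Benjamini-Hochberg adjusted at 0.05. On this scale the change of a low gene is understated. Other settings tried were pseudocounts of 0.5 and 5, no filter or a minimum mean of 50, TMM and upper-quartile scaling, no trend, array weights, a replicate block, a Ptprc covariate, each tumor left out, PIIO-1 tumor 5 with PBS tumor 4 left out, and edgeR 4.0.16 and DESeq2 1.42.0 on the recovered reads. edgeR and DESeq2 with each tumor left out, and the correlations without PIIO-1 tumor 4, were added after values were seen. The limma test was checked on simulated data, while edgeR, DESeq2 and the permutation tests were not.

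Members and gene lists were chosen with earlier results of these data known. Named genes are the members, Ifng, Irf1 and Ptprc, the 3 genes of lowest p in each pathway list, and the 8 genes most like the members' mean. The plan was to count gene models (Gm symbols) without naming them, but Gm4951, Gm12250 and Gm12185 were named. Further genes were named after their values were seen. Correlations with Ifng, Irf1 and Ptprc were adjusted over the 24 relations planned, and 1 gene of the plan is not reported here.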

Additional observations from a re-analysis of the deposited data

Results flagged for a closer look

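In groups of 5 tumors, a tumor was singled out where its gap to the nearest of the others was an unusually large share of the group's range. Of 58 groups (29 named genes in 2 groups) 5 were singled out, and chance does so for about 1 group in 20. Irgm2 had 5956 normalized counts in PBS tumor 5, below the other 4 PBS tumors. Ifng had 710 in PBS tumor 1 and Ifi47 had 7106 in the same tumor, both above the other 4. Gbp6 had 1683 and Arel1 had 2566 in PIIO-1 tumor 4, above the other 4 PIIO-1 tumors.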

How the results depend on the processing

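The members' median difference was negative under each alternative run, and in the limma fits with 1 tumor left out it ranged from -0.41 to -0.16. limma called 0 genes and 0 members in each of its fits, leave-one-out fits included (0 to 0), and so did edgeR. The replicate block gave 0 calls and 0 members called. Same-numbered tumors did not deviate together over all tested genes (r from -0.21 to 0.095 over 5 pairs, 1 tumor pair best with its own number). The labels do not state a pairing, and one that acts on few genes was not tested. DESeq2 called 3 genes over all tumors. It called 4, 2, 1, 8 and 39 without PBS tumors 1 to 5, and 35, 12, 2, 34 and 1 without PIIO-1 tumors 1 to 5, with 2 members called (Igtp -0.49, Iigp1 -0.50) only without PIIO-1 tumor 4. The cause was not tested. With 1 tumor left out limma gave Tgtp2 values from -0.32 to 0.071, Irf1 from -0.17 to 0.11 and Ptprc from -0.0094 to 0.27. Signs also turned for Irf1 by edgeR (0.0081) and DESeq2 (0.013). For Tgtp2 they turned without PBS tumor 1 (0.035 by edgeR, 0.039 by DESeq2), PIIO-1 tumor 1 (0.11 and 0.12) and PIIO-1 tumor 3 (0.039 and 0.038). Of the 18 correlations 8 passed, 1 without the 2 farthest tumors, 7 without PIIO-1 tumor 4 and 12 with values centred on group means. The p-values behind the last count are too small, so it is not on equal terms with the 8. For the ratios of 2 members the number of pairs past the threshold was 0 with each tumor left out, but a lone pair cannot pass in this design. With 5 tumors a group, a level 1.5-fold lower lies within the 95% intervals of Igtp, Iigp1, Tgtp1 and Tgtp2; depth does not limit the members, whose lowest value was 533 normalized counts.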

Other observations

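Interferon motifs in other lists were counted in the same RefSeq promoter windows. Of the 5 guanylate-binding protein genes with a window, 5 held an ISRE-core match, 2 a GAS match and 0 the GAS and ISRE-core arrangement found in 4 IRG members. Of 16 type I interferon-stimulated genes with a window, 9 held an ISRE-core match, 2 a GAS match, 1 both and 0 that arrangement. Of 8 genes of the interferon-gamma signalling chain, 3 held a GAS match and 1 an ISRE-core match, and of 8 LC3 and GABARAP conjugation genes, 2 held a GAS match and 0 an ISRE-core match. Among the 27025 genes with a window, 9.55% held a GAS match, 3.99% an ISRE-core match and 0.540% both. These counts describe letters in short windows, and many genes of the lists have no window in the table.

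The further IRG and guanylate-binding genes also met the fit that called Igtp and Iigp1. In DESeq2 without PIIO-1 tumor 4, a choice made after the data were seen, the 34 genes called included Gm12250 (-0.51), Gbp3 (-0.58), Gbp4 (-0.64) and Gbp6 (-0.71). limma and edgeR called 0 genes over the same 9 tumors.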
